A study of Rattus norvegicus with 48 samples.

Results

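The miR-148 and miR-152 family is a small group of vertebrate microRNAs (miRNAs) made from 3 genes in the rat, Mir148a, Mir148b and Mir152. Its 5 members studied here, rno-miR-148a-3p, rno-miR-148a-5p, rno-miR-148b-3p, rno-miR-152-3p and rno-miR-152-5p, were 5 of the 645 mature miRNAs counted in rat plasma. They were selected by name with their levels over all 4 time points and both regeneration groups already in view, so those levels and the calls made on them are given as a description. No p-value is given for a single member, and counts of members at an unadjusted p under 0.05 belong to that description.

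The samples were plasma from the tail vein of 12 male rats that carried a critical-size defect of the skull bone (calvaria). Each rat was sampled before surgery (baseline) and 1, 4 and 8 weeks after it, which gave 48 samples. The study took 6 rats with the most and 6 with the least new bone in the defect by microcomputed tomography, called strong and weak regenerators, out of animals whose defects were left empty or filled with a collagen-hydroxyapatite scaffold, alone, with a gene-activating plasmid, or with vesicles of mesenchymal stromal cells. The treatment of each rat was not mapped here, all rats had the defect, and no group without surgery was analysed here, so time after surgery and growth of the animals cannot be told apart. By the paper's counts, the selected rats with the scaffold alone were all strong regenerators, and the plasmid was more frequent among weak ones. Treatment and regeneration group therefore cannot be fully told apart. The baseline samples carry no regeneration label and were placed in a group through the rat they came from.

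A miRNA is cut from a hairpin precursor, and both arms of the hairpin can be kept. The suffixes 5p and 3p name the arm, and bases 2 to 8 of a miRNA form the seed, which pairs with target mRNAs. Members with the same seed are expected to share many targets. The 3p arms of this family are the usual guide strands, and the family is known for its abundance in liver and other epithelia and for regulating DNA methyltransferases. In bone, miR-148a is known for promoting the formation of osteoclasts, the cells that resorb bone, and its relative miR-152 has been linked to osteoblast differentiation.

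The 5 mature sequences are shown because they define which members can share targets, with the seed in capitals. They were taken from RefSeq on the rat assembly GRCr8, which held a mature sequence for 583 of the 645 counted miRNAs and for all 5 members.
rno-miR-148a-3p: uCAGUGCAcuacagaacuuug
rno-miR-148b-3p: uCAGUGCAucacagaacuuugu
rno-miR-152-3p: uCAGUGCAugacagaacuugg
rno-miR-148a-5p: aAAGUUCUgagacacucugacuc
rno-miR-152-5p: aGGUUCUGugauacacuccgacu

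The 3 members of the 3p arm shared the seed CAGUGCA, and no other of the 693 rat mature miRNAs in RefSeq carried it. Counted from 1 at the 5′ end, rno-miR-148a-3p differed from rno-miR-148b-3p by C9U and U10C, and from rno-miR-152-3p by C9U, U10G and U20G. Between rno-miR-148b-3p and rno-miR-152-3p the changes were C10G and U20G, so that only 1 base separated them in the first 17. The authors' assignment of reads tolerated a mismatch, and reads shared between these last miRNAs are therefore uncertain. The 5p members had seeds of their own, AAGUUCU and GGUUCUG, each found in no other rat miRNA of the table. With rno-miR-148a-5p read from its base 2, 14 of 22 bases matched rno-miR-152-5p.

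The 3 genes lie on different chromosomes. In GRCr8, the mature rno-miR-148a-3p maps to chr4:81664447-81664467 on the minus strand, rno-miR-148b-3p to chr7:136299930-136299951 on the plus strand, and rno-miR-152-3p to chr10:82329435-82329455 on the plus strand. Mir148b lies within Copz1 and Mir152 within Copz2, a pair of related genes for subunits of the COPI vesicle coat, and no annotated gene overlaps Mir148a. The hairpin of Mir148a (chr4:81664431-81664527, minus strand) is shown because the ratio of its arms in plasma shifted at week 8. Its capitals mark the 5p arm first and then the 3p arm.
Mir148a: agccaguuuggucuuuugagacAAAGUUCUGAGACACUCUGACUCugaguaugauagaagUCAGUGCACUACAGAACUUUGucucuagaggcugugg

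Counts summed over miRNAs to between 393259 and 1586398 per sample (median 796311). Levels are given as RPM, the reads of a miRNA per 1000000 miRNA reads, and 1 read was worth 0.630 to 2.54 RPM. Reads of UniSp2, a synthetic RNA added at extraction, numbered 91.1 to 144 per 1000 miRNA reads at week 8 and 23.3 to 60.4 at the earlier time points, so all 12 week 8 samples stood apart. RPM is a share of the reads, and less of one miRNA cannot be told apart from more of the others. Fold changes were taken from an edgeR quasi-likelihood fit over all miRNAs, and "called" means a false discovery rate (FDR) under 0.05 in that fit.

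At baseline, miR-148a-3p was by far the most abundant member, followed by miR-152-3p and miR-148b-3p, and both 5p members were rare. rno-miR-148a-3p ranged from 4125 to 6838 RPM around a median of 5762 RPM in the 12 baseline samples, and rno-miR-152-3p from 736 to 1522 RPM (median 1078 RPM). rno-miR-148b-3p ranged from 197 to 369 RPM (median 282 RPM). The levels of these 3 did not overlap. rno-miR-148a-5p lay between 10.1 and 35.8 RPM (median 20.4 RPM) and rno-miR-152-5p between 8.29 and 25.2 RPM (median 16.2 RPM), and these neighbours in the order did overlap. By mean RPM over all samples, the 5 members ranked 41 (miR-148a-3p), 92 (miR-152-3p), 131 (miR-148b-3p), 248 (miR-148a-5p) and 310 (miR-152-5p) of 645.

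**Figure D1:**
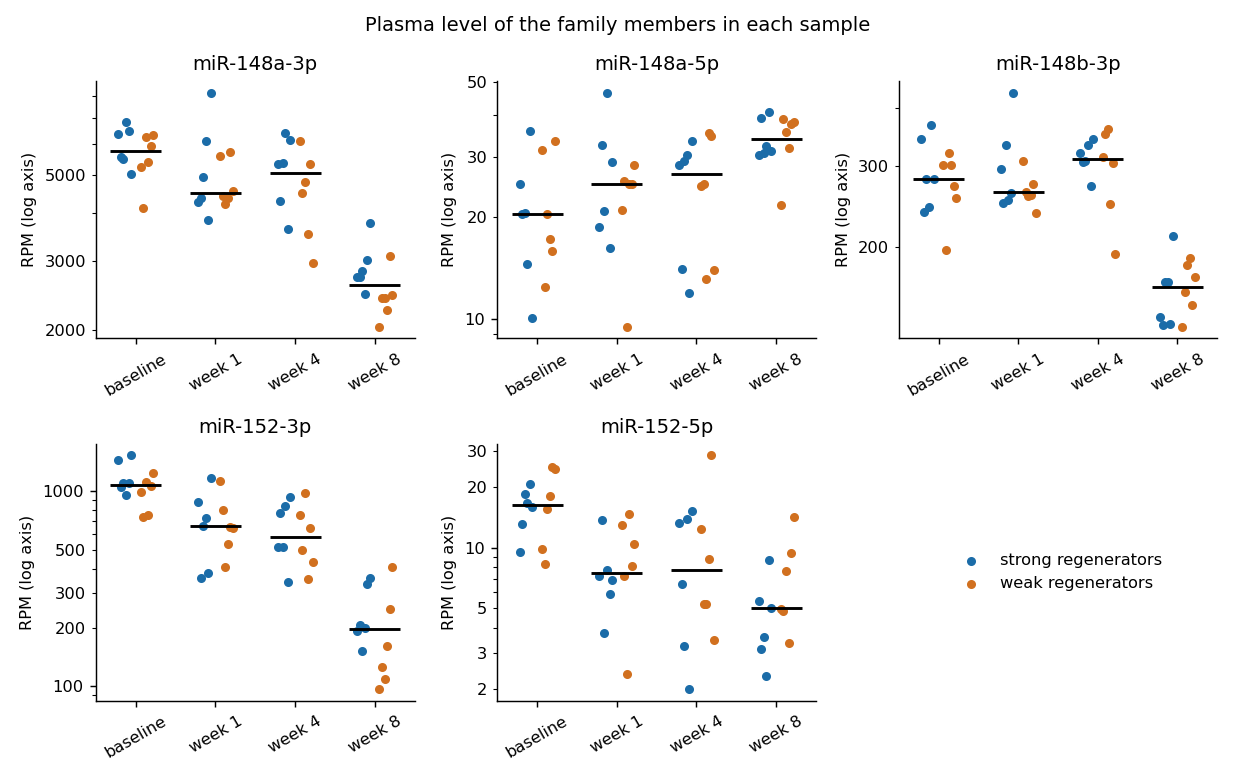
RPM of each member (log axes, 1 panel per member) in the 48 samples by time point, with strong regenerators in blue, weak regenerators in orange and a bar at the median of the 12 samples. All week 8 points of miR-148a-3p and miR-152-3p lie below all their baseline points, while miR-148a-5p was higher in RPM at week 8 than at baseline in 11 of 12 rats (its direction turned with UniSp2 scaling).

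miR-152-3p was the member with the largest change at week 8 and the only one called at every time point. At week 1 it ranged from 359 to 1171 RPM (median 659 RPM), at week 4 from 343 to 976 RPM (median 584 RPM) and at week 8 from 96.5 to 411 RPM (median 196 RPM). Levels at weeks 1 and 4 overlapped those at baseline, with 8 and 7 of 12 samples below every baseline sample, whereas all 12 samples at week 8 were below every baseline sample. Within rats, it was lower than at baseline in 10 of 12 rats at week 1, in 12 of 12 at week 4 and in 12 of 12 at week 8. The exceptions at week 1 were weak regenerators, rat 3 with a log2(RPM + 1) change of 0.174 and rat 6 with 0.116. The log2 fold change of rno-miR-152-3p against baseline was -0.54 (SE 0.195) at week 1, -0.68 (SE 0.195) at week 4 and -2.27 (SE 0.205) at week 8, and each was called. At week 8 this was a 4.84-fold lower level, and 24 of the 595 miRNAs tested had a lower fold change.

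The week 1 call of rno-miR-152-3p rested near the threshold. It was lost when any of 9 of the 12 rats was left out (strong regenerators 2, 5, 17, 21 and 23, and weak regenerators 7, 16, 25 and 26), with log2 fold changes from -0.66 to -0.47 over all 12 omissions, and when no filter on abundance was used. The week 4 call was lost without strong regenerator 2, which gave -0.61. The week 8 call was kept with each rat left out, from -2.40 to -2.13.

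miR-148a-3p, which held most reads of the family, was called at week 8 only. Its levels ran from 3824 to 8156 RPM (median 4492 RPM) at week 1 and from 2977 to 6430 RPM (median 5067 RPM) at week 4. At week 8 they ran from 2035 to 3757 RPM (median 2598 RPM). Weeks 1 and 4 overlapped baseline broadly and week 8 did not overlap it at all. It was below its own baseline in 9 of 12 rats at week 1, in 9 of 12 at week 4 and in 12 of 12 at week 8. The log2 fold change of rno-miR-148a-3p was -0.09 (SE 0.106) at week 1 and -0.15 (SE 0.106) at week 4, neither of them called, and -1.04 (SE 0.107) at week 8, which was called and equals a 2.06-fold lower level.

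miR-148b-3p, the rarest of the 3 members with the common seed, was also called at week 8 only. Its median was 263 RPM at week 1 (238 to 432 RPM), 311 RPM at week 4 (193 to 361 RPM) and 164 RPM at week 8 (135 to 212 RPM). At week 8, 11 of 12 samples lay below every baseline sample. The log2 fold change of rno-miR-148b-3p was 0.11 (SE 0.122) at week 1, 0.21 (SE 0.122) at week 4 and -0.73 (SE 0.124) at week 8, and only the week 8 value was called. It was lower than at baseline in 5, 4 and 12 of 12 rats at weeks 1, 4 and 8.

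In RPM, the 5p arm of Mir148a was higher at week 8 where its 3p arm was lower, a direction that depended on the scaling (it turned to a log2 fold change of -1.19 with samples scaled to UniSp2 reads). rno-miR-148a-5p had a median of 25.02 RPM at week 1 (9.49 to 46.5 RPM), 26.8 RPM at week 4 (11.9 to 35.3 RPM) and 34.0 RPM at week 8 (21.6 to 40.7 RPM). The groups overlapped, with 5 of 12 samples at week 8 above every baseline sample. Its log2 fold change was 0.29 (SE 0.203) at week 1, 0.25 (SE 0.202) at week 4 and 0.72 (SE 0.203) at week 8, and the last was called as higher. The exception among the 12 rats at week 8 was weak regenerator 3, with a log2(RPM + 1) change of -0.527. These are small counts, from 4 to 46 reads per sample.

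rno-miR-152-5p was the rarest member, with 1 to 27 reads per sample. Its median was 16.2 RPM at baseline, 7.51 RPM at week 1 (2.37 to 14.7 RPM), 7.73 RPM at week 4 (1.99 to 28.6 RPM) and 5.02 RPM at week 8 (2.31 to 14.1 RPM). All time points overlapped, and 9 of 12 week 8 samples lay below every baseline sample. Its log2 fold change was -0.79 (SE 0.281) at week 1, where it was under the abundance filter and not tested, -0.69 (SE 0.278) at week 4, not called, and -1.30 (SE 0.303) at week 8, called as lower. With the rat as a term in the model, it was tested at week 1 and called there (log2 fold change -0.82), so that 2 members were called lower in place of 1.

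At week 1, 1 of 4 tested members was called lower, where 7.78% of the 257 tested miRNAs were. At week 4, 1 of 5 members was called lower, against 4.03% of 645. At week 8, 4 of 5 members were called lower, against 28.1% of 595, and 1 of 5 was called higher, against 14.8%. The median log2 fold change of the members was -0.09, -0.15 and -1.04 at weeks 1, 4 and 8, and that of all tested miRNAs was -0.0042, 0.0067 and -0.28. These 3 comparisons share the baseline samples. Since the members were chosen with these values known, nothing is read from the counts.

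**Figure D2:**
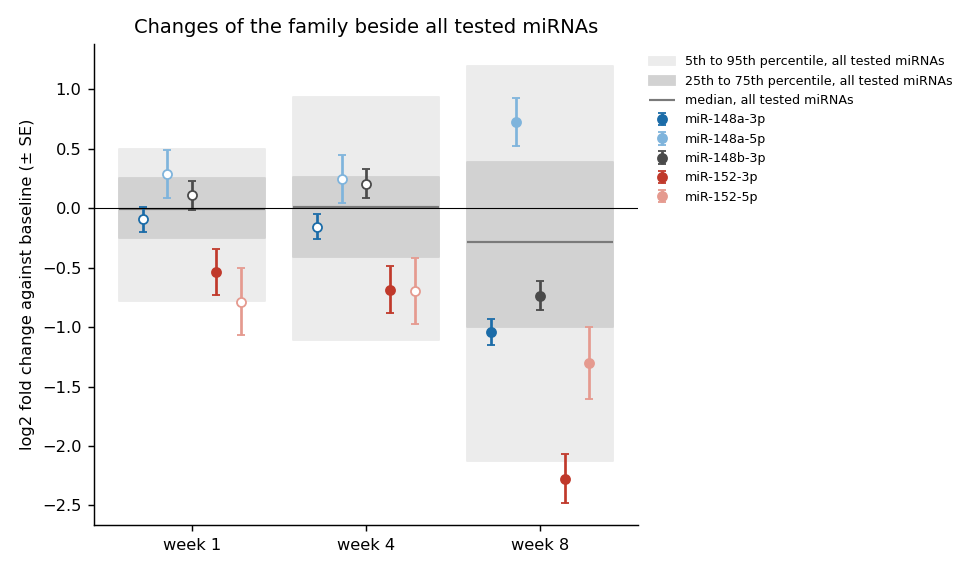
Log2 fold change against baseline (y axis, bars are SE) of the 5 members at weeks 1, 4 and 8, filled where called and open where not, over the percentile bands and median of all tested miRNAs. At week 8 miR-152-3p (-2.27) lies below the band from the 5th to the 95th percentile and the other members lie inside it.

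For the 3 members of the 3p arm, the last step between samplings carried most of the change. For rno-miR-152-5p, the first step (-0.79, SE 0.281) and the last step (-0.61, SE 0.315) were close, given their SEs. With UniSp2 scaling its last step was the larger (-2.13 against -1.04). From week 1 to week 4, edgeR called 0 members, where it called 0.155% of 645 miRNAs, with log2 fold changes between -0.15 and 0.10 for the members and 74 miRNAs and 0 members at an unadjusted p under 0.05. DESeq2 called 1 miRNA and limma-voom 0 in that comparison. From week 4 to week 8, the 3 members of the 3p arm were called lower, against 25% of 557 tested miRNAs. The log2 fold change of rno-miR-152-3p for that step was -1.59 (SE 0.201), that of rno-miR-148a-3p -0.89 (SE 0.107) and that of rno-miR-148b-3p -0.94 (SE 0.125). All 3 were lower at week 8 than at week 4 in 12 of 12 rats. The 5p members were not called, with 0.48 (SE 0.202) for rno-miR-148a-5p and -0.61 (SE 0.315) for rno-miR-152-5p. The value of rno-miR-148a-5p lay near the threshold. It was called higher under 6 of 10 alternative settings and turned to -1.06 with UniSp2 scaling.

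Ratios of members within a sample do not depend on how the samples were scaled. For every 100 reads of miR-148a-3p, baseline samples held 13.9 to 30.2 reads of miR-152-3p (median 18.3). The median was 12.8 at week 1 (8.22 to 20.5), 12.2 at week 4 (9.44 to 20.3) and 7.33 at week 8 (4.53 to 16.7). At week 8 the ratio was lower than at baseline in 12 of 12 rats, and 11 of 12 samples were below every baseline sample, so miR-152-3p was lower relative to the member with which it shares a seed. The ratio of miR-152-3p to miR-148b-3p was lower too, with medians of 389, 255, 218 and 127 reads per 100 at baseline and weeks 1, 4 and 8. miR-148b-3p outnumbered miR-152-3p in 5 of 12 samples at week 8 and in 0 of 12 at each earlier time point.

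The ratio of miR-148b-3p to miR-148a-3p moved the other way and by less. For every 100 reads of miR-148a-3p there was a median of 5.11 reads of miR-148b-3p before surgery. The medians after it were 5.82 (week 1), 6.26 (week 4) and 6.30 (week 8). The ratio was above the rat's own baseline in 10, 11 and 10 of 12 rats at these weeks. It ranged from 3.58 to 5.73 at baseline and from 4.51 to 8.43 at week 8, so that the ranges overlapped, with 7 of 12 week 8 samples above every baseline sample. miR-148a-3p made up a median of 81.0% of the reads of the family at baseline and 87.6% at week 8, while miR-152-3p went from 14.8% to 6.40%. Together, the 5 members took a median of 0.711% of all miRNA reads before surgery. The share was 0.550% a week later, 0.619% at week 4 and 0.309% at week 8. All 12 week 8 samples were below every baseline sample in that share.

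The arms of a hairpin arise in equal number, and their ratio in plasma shifted at week 8. For every 1000 reads of miR-148a-3p, the median number of miR-148a-5p reads was 3.45 at baseline (2.0 to 6.01). It was 4.37 at week 1 (2.25 to 7.58), 5.04 at week 4 (2.73 to 10.02) and 13.3 at week 8 (8.33 to 16.2). All 12 week 8 samples were above every baseline sample. For the hairpin of Mir152, the median number of 5p reads per 1000 3p reads was 15.4 at baseline (6.59 to 23.9) and 27.2 at week 8 (11.6 to 69.8), higher in 10 of 12 rats with overlapping ranges. rno-miR-148b-5p, the other arm of Mir148b and no member, had a mean of 16.6 RPM at baseline and 19.1 RPM at week 8. Per 1000 reads of miR-148b-3p it had a median of 61.1 reads at baseline (30.6 to 101) and 111 at week 8 (52.4 to 221), also higher in 10 of 12 rats. The 5p counts behind these ratios are low, and the larger spread for Mir152 comes with its 1 to 10 5p reads per sample at week 8.

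**Figure D3:**
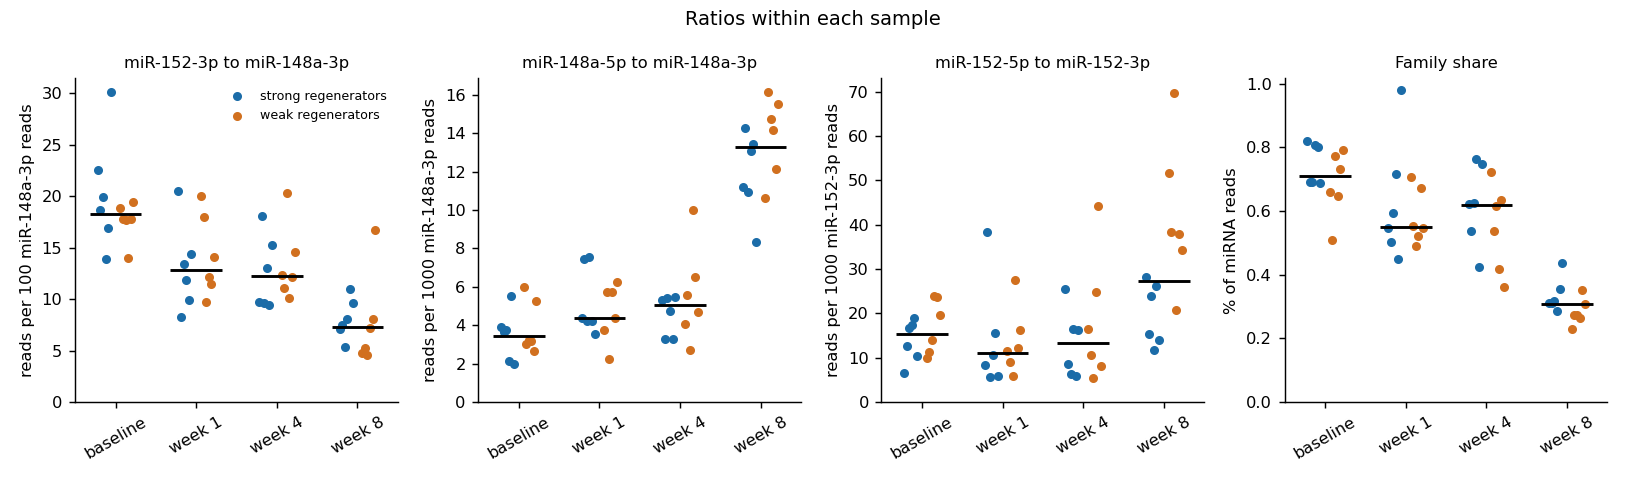
Ratios within each of the 48 samples by time point (y axes from 0), with strong regenerators in blue, weak regenerators in orange and a bar at the median of 12. The ratio of miR-152-3p to miR-148a-3p was lower at week 8 (median 7.33 per 100 against 18.3 at baseline), the ratio of miR-148a-5p to miR-148a-3p was higher in every sample than at baseline (13.3 per 1000 against 3.45), and the family's share of reads was 0.309% against 0.711%.

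Other measures moved with week 8 too. The 7 miRNAs listed for red blood cells summed to 235950 to 335356 RPM at baseline (median 298611 RPM) and to 320768 to 430866 RPM at week 8 (median 371362 RPM), and 4 of the 7 were called higher and 1 lower. The log2 ratio of miR-451-5p to miR-23a-3p, a measure of haemolysis, had a median of 2.30 at baseline and 3.03 at week 8. The 5 liver miRNAs summed to 4561 to 14667 RPM at baseline and 3678 to 11780 RPM at week 8, with 1 called higher and 2 lower. The 4 platelet and myeloid miRNAs summed to medians of 23261 and 23297 RPM, with 1 called higher and 1 lower. Of all 595 miRNAs tested at week 8, 14.8% were called higher and 28.1% lower. With the red blood cell miRNAs left out of the total, the log2 ratio of mean RPM at week 8 to baseline was -2.16 for rno-miR-152-3p (-2.33 with them) and 0.84 for rno-miR-148a-5p (0.67 with them). At week 1, edgeR called 5 of the 7 red blood cell miRNAs higher (summed median 346924 RPM) and 3 of the 4 tested liver miRNAs. Of all 257 tested miRNAs, it called 32 higher. Of the red blood cell list, DESeq2 called 4 and limma-voom 0 at week 1, and of the liver list 3 and 2. At week 4, edgeR called 0 of 7 red blood cell and 0 of 5 liver miRNAs, with 5 and 3 at an unadjusted p under 0.05, and DESeq2 and limma-voom called 0 of both. The part of liver, platelets and other sources in the changes of the family was not tested.

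Scaling set the direction of one member. With samples scaled to their UniSp2 reads, the median log2 fold change at week 8 of the 310 miRNAs with a mean of at least 10 RPM moved from -0.13 to -2.01, and rno-miR-148a-5p turned from 0.72 to -1.19. Relative to that median, rno-miR-148a-5p stood at 0.85 with the usual scaling and at 0.82 with UniSp2, and rno-miR-152-3p at -2.15 and -2.16. rno-miR-148a-3p stood at -0.92 and -0.95, rno-miR-148b-3p at -0.61 and -0.65, and rno-miR-152-5p at -1.18 and -1.14. A scaling shifts all miRNAs of a sample alike, so the order of the members and their distances from the median could hardly differ. Nothing is read from their likeness. Whether miR-148a-5p rose in the plasma or fell less than other miRNAs cannot be told apart. The week itself and the higher UniSp2 share cannot be told apart either, since every week 8 sample had it.

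**Figure D4:**
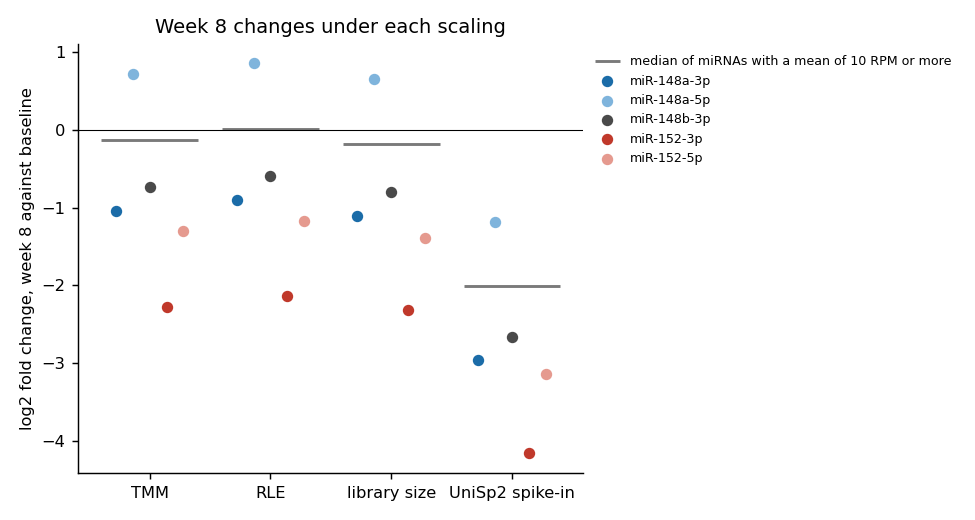
Log2 fold change at week 8 against baseline (y axis) of the 5 members under 4 scalings (TMM, RLE, library size and UniSp2 reads), with a bar at the median of the 310 miRNAs with a mean of at least 10 RPM. Under UniSp2 the median was -2.01 and miR-148a-5p was -1.19. A scaling shifts all miRNAs of a sample alike, so the order of the members is nearly fixed.

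No member was called between strong and weak regenerators. Over all weeks, the log2 difference of strong from weak regenerators was 0.10 (SE 0.0748) for rno-miR-148a-3p, -0.01 (SE 0.143) for rno-miR-148a-5p and 0.02 (SE 0.087) for rno-miR-148b-3p. It was 0.11 (SE 0.139) for rno-miR-152-3p and -0.30 (SE 0.208) for rno-miR-152-5p. This fit had no term for the rat, so the repeated samples of each rat counted as independent and these SEs may be too small. A limma-voom fit that treated the samples of a rat as correlated, in place of a term for each rat, also called 0 miRNAs. edgeR called 0 members and 0.0% of 645 miRNAs, with 64 miRNAs and 0 members at an unadjusted p under 0.05, and DESeq2 and limma-voom also called 0. The signs for rno-miR-148a-5p, rno-miR-148b-3p and rno-miR-152-3p changed with the scaling.

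No member was called between the groups at a single time point either. At week 8, rno-miR-152-3p ranged from 152.3 to 360 RPM in strong regenerators (median 202 RPM) and from 96.5 to 411 RPM in weak regenerators (median 144 RPM). rno-miR-148a-3p ranged from 2469 to 3757 RPM in strong (median 2780 RPM) and from 2035 to 3087 RPM in weak regenerators (median 2410 RPM). The groups overlapped for both. The log2 difference at week 8 was 0.23 (SE 0.287) for rno-miR-152-3p, 0.13 (SE 0.156) for rno-miR-148a-3p and -0.69 (SE 0.49) for rno-miR-152-5p. edgeR called 0 members at any time point. It called 0.0% of 645 miRNAs at baseline, week 1 and week 4 and 0.155% at week 8, with 42, 32, 25 and 35 miRNAs and 0 members at an unadjusted p under 0.05. DESeq2 called 0 miRNAs at each, and limma-voom called 0 at baseline, week 1 and week 4 and 1 miRNA at week 8, which was no member.

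The change against baseline was also compared between the groups. The difference of the week 8 change, strong minus weak, was -0.06 (SE 0.40) for rno-miR-152-3p, 0.03 (SE 0.220) for rno-miR-148a-3p and -0.07 (SE 0.418) for rno-miR-148a-5p. It was -0.28 (SE 0.253) for rno-miR-148b-3p and -0.59 (SE 0.620) for rno-miR-152-5p. edgeR called 0 members and 0.0% of 645 miRNAs for the changes at weeks 1, 4 and 8, with 27, 38 and 26 miRNAs and 0 members at an unadjusted p under 0.05, and DESeq2 and limma-voom called 0. These values have wide errors, with 6 rats in each group, and do not show that both groups changed alike.

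**Figure D5:**
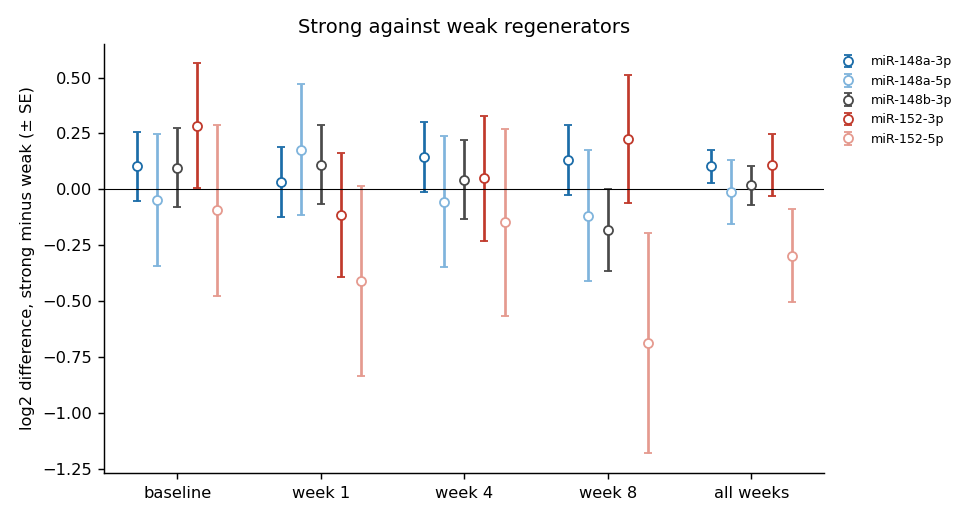
Log2 difference of strong minus weak regenerators (y axis, bars are SE) for the 5 members at each time point and over all weeks, with open points since none was called. The largest value was -0.69 for miR-152-5p at week 8, with an SE of 0.49. Over all weeks, the SEs count the samples of each rat as independent.

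The miRNAs whose course within the rats was most like that of a member were sought among 305 others with a mean of at least 10 RPM. Likeness was the root mean square (RMS) difference of the 36 log2(RPM + 1) changes against baseline (12 rats by 3 weeks), and these changes share each rat's baseline sample. For rno-miR-152-3p they were miR-214-3p (RMS difference 0.465), miR-542-3p (0.531) and miR-140-5p (0.550), where the median of all candidates was 1.63. miR-214-3p is known as an inhibitor of osteoblasts and miR-140-5p for its role in cartilage. Their log2 fold changes at week 8 were -2.07, -1.84 and -2.34.

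For rno-miR-148a-3p and rno-miR-148b-3p the nearest was the same, miR-27a-3p, with RMS differences of 0.336 and 0.293 and a log2 fold change of -0.76 at week 8. Next to rno-miR-148a-3p came let-7c-2-3p and let-7a-1-3p (RMS difference 0.363 for both). Their mean level (279 RPM) and log2 fold changes were also the same, so they are not separate courses. Next to rno-miR-148b-3p came miR-101a-3p (0.389) and miR-106b-5p (0.42). Between themselves, miR-148a-3p and miR-148b-3p differed by 0.414, and from miR-152-3p they differed by 0.995 and 1.26. The 2 members of the miR-148 3p arm were thus closer to each other than to miR-152-3p, although all 3 share the seed. The nearest to rno-miR-148a-5p were miR-221-3p (0.684), miR-18a-3p (0.690) and miR-147 (0.704), whose log2 fold changes at week 8 were 0.90, 0.79 and 1.09. The nearest to rno-miR-152-5p were miR-322-5p (0.860), miR-542-3p (0.877) and miR-140-3p (0.919), but with a pseudocount of 10 RPM none of these 3 remained among its nearest.

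Of a list of 19 miRNAs known from bone cells, which holds no member of the family, 1 of 15 tested was called higher at week 1 and 0 lower. Of all 257 miRNAs tested at week 1, 32 were called higher and 20 lower. At week 4, edgeR called 0 of 19, with 4 at an unadjusted p under 0.05, and DESeq2 and limma-voom called 0. Of all 645 miRNAs, edgeR called 26 lower and 1 higher at week 4. At week 8, 5 of 19 were called higher and 6 lower, where 14.8% and 28.1% of all 595 tested miRNAs were. The median log2 fold change over the list was 0.10. Of the list, miR-214-3p was the one nearest to miR-152-3p, and none of the 19 was called at all 3 time points.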

How the data were processed

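Plasma small RNA of 48 samples (12 rats at 4 time points, in 8 groups of 6) was sequenced from single-adapter libraries. The authors trimmed reads with cutadapt 3.3, aligned them to the rat genome and next to miRBase (rat entries) using Bowtie 1.3.0 with miRDeep2, and deposited a table of raw, unnormalized counts with 645 miRNAs and 3 extraction spike-ins. A mismatch was allowed, which can move reads between near-identical members.

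From these counts, RPM were computed over the miRNA total, with a pseudocount of 1 RPM for log2 changes. Fold changes came from edgeR 4.0.16 (legacy quasi-likelihood, TMM) in R 4.3.3, with Benjamini-Hochberg adjustment over the miRNAs left by an independent filter on abundance. The model held week and regeneration group, or 1 mean for each of the 8 groups for single time points and differences of changes. limma 3.58.1 and DESeq2 1.42.0 were alternatives. The edgeR fit with week and regeneration group was tested on simulated counts, with changes set at week 8 only and no correlation within rats. The other fits were not tested in this way. Samples pair by the rat in the labels: the mean correlation of their deviations from the group means was 0.107 within and -0.0289 between rats. The members, the lists of cell type and bone miRNAs and the rule for named miRNAs (the 5 members, miR-148b-5p, the 3 miRNAs nearest each member, other miRNAs with a member's seed, and bone miRNAs called at all 3 weeks) were chosen with earlier results of these data known. Treatment was not a covariate. Coordinates are of GRCr8, which was not the assembly the reads were mapped to.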

Additional observations from a re-analysis of the deposited data

Results flagged for a closer look

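In weak regenerator 25 at week 4, rno-miR-152-5p stood at 28.6 RPM (14 reads), while the other 5 weak regenerators at that time point lay between 3.47 and 12.4 RPM. It was the only one of 40 sets of 6 samples (5 members in 8 groups) in which 1 sample stood apart from the rest by Dixon's criterion, which flags about 1 in 20 sets by chance. The sample had 489502 miRNA reads, and no cause was tested.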

How the results depend on the processing

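The number of members called at week 8 against baseline was 5 under each of the 10 alternatives and with each rat left out (5 to 5). With UniSp2, rno-miR-148a-5p was among them as lower, not higher, and 497 of all miRNAs were called in place of 255. At week 1, where 1 member was called, the number was 2 with library size alone, UniSp2 scaling, filterByExpr, DESeq2, limma-voom and the replicate block (the rat as a term), 0 with no filter, and 0 to 2 with 1 rat left out. Of all miRNAs, 52 were called at week 1. This was 59 with UniSp2, 63 with DESeq2, 38 with limma-voom, 49 with the block and 21 with no filter. At week 4, where 1 member was called, the number was 3 with UniSp2, 2 with limma-voom and 0 to 1 with 1 rat left out. Of all miRNAs, 63 were called at week 4 with UniSp2 and 30 with limma-voom, in place of 27. From week 4 to week 8, 5 members were called with UniSp2 in place of 3, and 3 to 4 with 1 rat left out. Under 6 of the 10 alternatives, UniSp2 not among them, rno-miR-148a-5p was also called for that step, as higher. Of all miRNAs, UniSp2 called 455 for that step in place of 213. In the comparisons of strong with weak regenerators and of week 4 with week 1, 0 members were called by edgeR, DESeq2, limma-voom and every other alternative, and 0 to 0 with 1 rat left out. Apart from the week 1 call of rno-miR-152-5p, the block changed no call. The cause of these shifts was not tested.

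Of the 127 sign changes among single log2 values, the only one of a called value was that of rno-miR-148a-5p at week 8 under UniSp2 (-1.19). Against baseline, UniSp2 also gave -0.017 for rno-miR-148a-5p and -0.17 for rno-miR-148b-3p at week 1, and -0.13 and -0.16 at week 4. From week 4 to week 8, it gave -1.06 for rno-miR-148a-5p. From week 1 to week 4, limma-voom gave -0.044 for rno-miR-152-5p, and with 1 rat left out that value ran from -0.10 to 0.22 and that of rno-miR-148a-5p from -0.11 to 0.052.

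In strong against weak regenerators over all weeks, rno-miR-148a-5p was 0.0050 with RLE, 0.054 with library size and 0.044 without the week 8 samples, and UniSp2 gave -0.049 for rno-miR-148b-3p and -0.0020 for rno-miR-152-3p. At week 1, rno-miR-148a-3p was -0.039 with UniSp2 and rno-miR-152-3p 0.0026 with library size. At week 4, UniSp2 gave -0.21 for rno-miR-148a-3p, -0.28 for rno-miR-148b-3p and -0.30 for rno-miR-152-3p, and rno-miR-148a-5p was 0.00074 with RLE, 0.013 with library size and 0.0031 with DESeq2. At week 8, rno-miR-148a-5p was 0.0080 with library size. With 1 rat left out, the ranges that crossed 0 were -0.056 to 0.026 for rno-miR-148a-5p and -0.029 to 0.079 for rno-miR-148b-3p over all weeks. At baseline they were -0.26 to 0.095 for rno-miR-148a-5p, -0.017 to 0.16 for rno-miR-148b-3p and -0.27 to 0.033 for rno-miR-152-5p. At week 1 they were -0.075 to 0.12 for rno-miR-148a-3p and -0.27 to 0.11 for rno-miR-152-3p. At week 4 they were -0.17 to 0.10 for rno-miR-148a-5p, -0.056 to 0.21 for rno-miR-148b-3p, -0.065 to 0.29 for rno-miR-152-3p and -0.32 to 0.24 for rno-miR-152-5p, and at week 8 -0.21 to 0.0070 for rno-miR-148a-5p.

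In the difference of the week 1 change between strong and weak regenerators, rno-miR-148a-3p was 0.027 with library size and rno-miR-148b-3p -0.098 with UniSp2. For week 4, rno-miR-148a-3p was -0.39 with UniSp2, and rno-miR-148a-5p was 0.053 with RLE, 0.066 with library size, 0.054 with filterByExpr, 0.059 with DESeq2, 0.033 with limma-voom, 0.018 with the replicate block and 0.067 without the week 8 samples. rno-miR-148b-3p was 0.0030 with RLE, 0.00044 with filterByExpr and 0.023 without the week 8 samples, and rno-miR-152-5p was 0.0053 with filterByExpr, 0.015 with DESeq2, 0.024 with the edgeR 4 method and 0.019 without the week 8 samples. For week 8, rno-miR-148a-3p was -0.020 with UniSp2, rno-miR-148a-5p was 0.061 with library size and 0.041 with the compared samples only, and rno-miR-152-3p was 0.041 with library size, 0.026 with limma-voom and 0.063 with the compared samples only. With 1 rat left out, the week 1 ranges that crossed 0 were -0.21 to 0.084 for rno-miR-148a-3p, -0.00043 to 0.57 for rno-miR-148a-5p and -0.058 to 0.17 for rno-miR-148b-3p. The week 4 ranges were -0.085 to 0.23 for rno-miR-148a-3p, -0.27 to 0.33 for rno-miR-148a-5p, -0.13 to 0.20 for rno-miR-148b-3p, -0.38 to 0.0016 for rno-miR-152-3p and -0.35 to 0.28 for rno-miR-152-5p. The week 8 ranges were -0.067 to 0.19 for rno-miR-148a-3p, -0.24 to 0.18 for rno-miR-148a-5p and -0.19 to 0.24 for rno-miR-152-3p.

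The counts of both 5p members, 1 to 46 reads per sample, limit what can be said of them.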
